A study of Homo sapiens with 60 samples.

Results

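Arsenic and mercury were compared directly with each other after 3 h of treatment in 1321N1 cells, an established human cell line derived from an astrocytoma. The comparison used the 3 libraries titled for arsenic at 3 h and the 3 titled for mercury at 3 h, which are 6 of the 60 libraries in the series. The other libraries hold non-treated cells, cadmium, and the time points 1.5, 6, 12, and 24 h. Arsenic was given as sodium metaarsenite at 2.55 µM and mercury as mercury chloride at 20 µM, both in full growth medium with serum, and 3 libraries of non-treated cells collected at 3 h are given beside them as background. The study chose these concentrations as equally toxic in a viability assay at a later time, so the metals differ in molar concentration, and an effect of the metal cannot be told apart from an effect of its concentration. The sample labels call the 3 libraries of a group technical replicates. The p values rest on the spread between libraries within a group, estimated over all 60 libraries and not from these 6 alone. They may not cover the spread between independent cultures. 1321N1 is a tumour-derived line, and its response may not be that of astrocytes.

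Both arsenite and the mercuric ion bind thiol groups of proteins and of glutathione, and cells answer such damage with several transcriptional programs. Misfolded proteins release HSF1, which induces the cytosolic chaperones; modified KEAP1 releases NRF2, which induces antioxidant genes; kinases that phosphorylate the initiation factor eIF2α favour translation of ATF4, the transcription factor of the integrated stress response; zinc displaced from proteins activates MTF1, which induces metallothioneins. MAP kinases activated by stress or growth factor receptors induce the immediate-early genes, which rise within minutes without new protein synthesis and whose products include their own feedback inhibitors.

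The 6 libraries held between 2215276 and 3837241 counts on genes, so that 3 counts in a library stood for 0.775 to 1.31 CPM (counts scaled to the same normalized library size). Of 62703 genes, 20171 had a count in these libraries, and 12341 passed the filter on low counts and were tested with edgeR. The log2 CPM of libraries within a group correlated across genes at 0.965 to 0.981, and those of an arsenic with a mercury library at 0.966 to 0.975. Of 12 astrocyte and glioma markers, 5 passed the filter on low counts. The markers ALDH1L1, FABP7, AQP4, and S100B were at 0 in all non-treated, arsenic, and mercury libraries at 3 h. The summed level of the list, which also holds VIM, NES, and CD44, was 5522 to 5758 CPM with arsenic and 5168 to 6141 CPM with mercury. This sum does not give the level of most of its members. Markers of neurons summed to 21.2 to 30.2 CPM, those of epithelial cells to 62.3 to 82.8 CPM, and those of microglia and blood to at most 1.55 CPM in the 6 libraries.

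Arsenic replicate 2 stood apart from the others. It had the lowest total count and gave 1.91% of its counts to genes of the mitochondrial genome, whereas the other 8 libraries of the time point gave 5.43 to 7.03%. The 13 protein-coding mitochondrial genes all had an LFC (log2 fold change, arsenic minus mercury) below 0, with a median of -0.47 and 0 called (edgeR), 13 called without a filter on low counts, and a median of -0.12 when arsenic replicate 2 was left out. The mitochondrial rRNA gene MT-RNR1 was called higher with mercury (LFC -0.61, adjusted p = 0.0387), and without arsenic replicate 2 its LFC was -0.29 (adjusted p = 0.474). It was also not called without any 1 of the mercury libraries (adjusted p 0.054 to 0.134). Over all genes, 155 of the 233 genes called below were still called without this library, and all 233 kept their direction.

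Most genes that differed between the metals at 3 h were higher with mercury. At an adjusted p under 0.05, 233 genes were called, 1.89% of those tested. Of these, 206 genes (1.67%) were higher with mercury and 27 (0.219%) were higher with arsenic. An LFC beyond 1 in addition was found for 55 genes (0.446%), 48 (0.389%) higher with mercury and 7 (0.0567%) higher with arsenic. The changes were mostly modest, with a median of 1.55-fold for the genes higher with mercury and 1.61-fold for those higher with arsenic, and the median LFC of all genes was 0.01. Against non-treated cells, which both sets of libraries share as a control, arsenic changed 17 genes (0.138%), of which 15 were higher (0.122%) and 2 lower (0.0162%), and mercury 191 (1.55%), of which 172 were higher (1.39%) and 19 lower (0.154%). The number of genes higher with mercury was 129 without arsenic replicate 3 and 120 without mercury replicate 2, and the number higher with arsenic was 12 and 16. Against non-treated cells, the 15 genes became 23 without arsenic replicate 1 and 9 without non-treated replicate 3, and the 172 became 113 without mercury replicate 2, 114 without non-treated replicate 1, and 108 without non-treated replicate 3. The 2 genes lower with arsenic became 0 to 8 with 1 library left out, and the 19 lower with mercury became 11 without mercury replicate 1, 9 without non-treated replicate 1, and 10 without mercury replicate 2 or non-treated replicate 3.

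**Figure D1:**
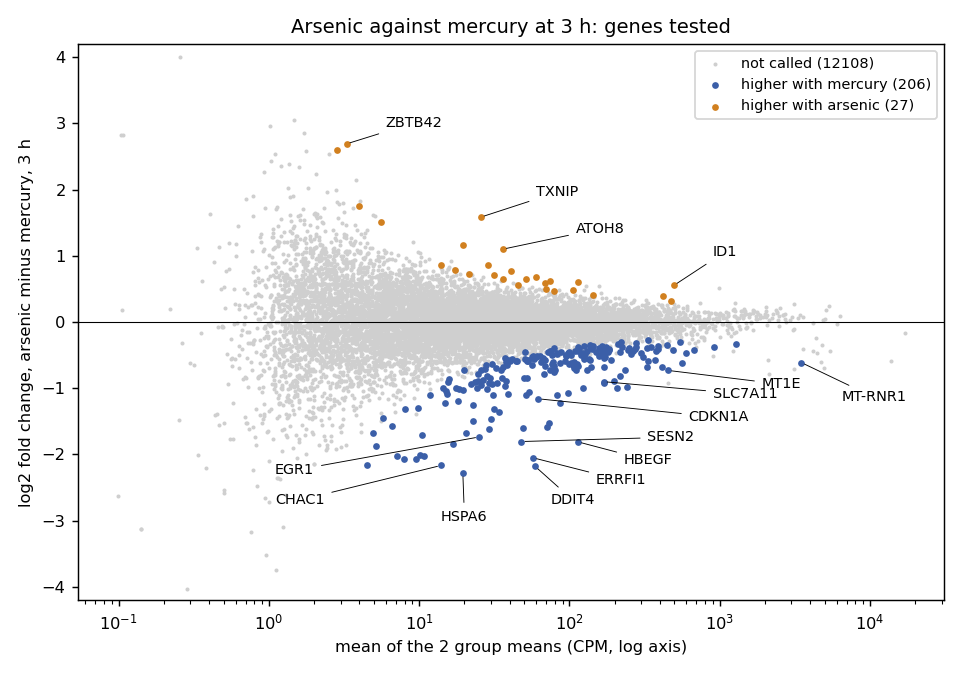
Each point is a gene, placed by the mean of the arsenic and mercury group means at 3 h (CPM, log axis) and by its LFC, arsenic minus mercury; genes with 0 counts in all 6 libraries are not drawn. The 206 genes called higher with mercury (blue) lie below 0 and reach -2.28 (HSPA6), and the 27 called higher with arsenic (orange) lie above 0, with the highest LFC at low levels.

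Of the called genes, 67 of the 206 higher with mercury and 1 of the 27 higher with arsenic were on any of the gene lists. The lists were chosen with earlier results of these data known, and the share of all tested genes on any list was not counted. In the list of 39 tested regulators and targets of the integrated stress response, 16 genes were higher with mercury and 0 higher with arsenic, and the median LFC was -0.53. In the list of 36 tested immediate-early genes, 16 were higher with mercury and 0 with arsenic, with a median of -0.64. Of 14 tested MAP kinase phosphatases and Sprouty-type inhibitors, 6 were higher with mercury (median -0.63), and of 32 cytosolic heat-shock chaperones and co-chaperones 9 were (median -0.21). Of 23 genes of p53, growth arrest, and cell death, 7 were higher with mercury (median -0.10). Against non-treated cells, 0 immediate-early genes were called higher with arsenic and 16 with mercury, and for the integrated stress response these numbers were 1 and 20. The counts between the metals stand against 1.67% of all tested genes. Those against non-treated cells stand against 0.122% of all tested genes for arsenic and 1.39% for mercury.

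Genes of the integrated stress response were among those with the lowest LFC. DDIT4, which encodes an inhibitor of mTORC1 signalling, stood at 18.2, 17.9, and 27.7 CPM with arsenic and at 91.6, 98.4, and 101 CPM with mercury. Non-treated cells had 11.8, 8.68, and 7.39 CPM, so that the 3 groups did not overlap. DDIT4 was 4.53-fold higher with mercury than with arsenic (LFC -2.18, SE 0.19, adjusted p = 1.38e-13), and both metals raised it above non-treated cells (LFC 1.2 for arsenic, adjusted p = 0.00605; 3.38 for mercury, adjusted p = 6.63e-21).

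For the other leading members of the list, the arsenic libraries lay nearer to non-treated cells than to the mercury libraries. SESN2, a stress-induced leucine sensor upstream of mTORC1, had 26.3, 20.1, and 17.3 CPM with arsenic, 71.0, 76.7, and 76.4 CPM with mercury, and 13.9, 15.9, and 12.4 CPM in non-treated cells (LFC between the metals -1.8, SE 0.18, adjusted p = 2.23e-11). PPP1R15A, which encodes the GADD34 subunit of the phosphatase that reverses eIF2α phosphorylation, had 31.5, 28.0, and 46.7 CPM with arsenic and 103, 119, and 99.2 CPM with mercury (LFC -1.59, SE 0.16, adjusted p = 2.23e-11). CHAC1, a glutathione-degrading enzyme, had 6.80, 2.62, and 5.33 CPM with arsenic and 21.3, 19.4, and 28.4 CPM with mercury (LFC -2.17, SE 0.32, adjusted p = 2.34e-06). Against non-treated cells, arsenic gave an LFC of 0.60 for SESN2, 0.49 for PPP1R15A, and 0.35 for CHAC1, none of them called, whereas mercury gave 2.41, 2.07, and 2.52, all called. The arsenic libraries of SESN2 nevertheless all lay above the non-treated ones, so a smaller rise with arsenic may have gone uncalled.

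The transcription factors of this program differed by different amounts. ATF4 mRNA had 311, 309, and 329 CPM with arsenic and 506, 472, and 534 CPM with mercury (LFC -0.67, adjusted p = 0.000487). ATF3, a target of ATF4 that is also an immediate-early gene, had 8.04, 6.12, and 7.66 CPM with arsenic and 24.7, 24.5, and 30.2 CPM with mercury (LFC -1.84, adjusted p = 4.68e-06). DDIT3, which encodes CHOP, had 13.9, 11.8, and 9.66 CPM with arsenic and 16.2, 17.3, and 16 CPM with mercury, and this difference was not called (LFC -0.48, SE 0.22, adjusted p = 0.341). TRIB3, a pseudokinase induced by CHOP, was not called either (LFC -0.20, adjusted p = 0.759), with ranges that overlapped.

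Amino acid transport and metabolism split in the same list. SLC7A11, the cystine importer that supplies cysteine for glutathione, had 119, 131, and 104 CPM with arsenic and 212, 217, and 230 CPM with mercury (LFC -0.90, SE 0.11, adjusted p = 2.12e-08). Its heavy chain partner SLC3A2 had 150, 125, and 151 CPM with arsenic and 198, 211, and 208 CPM with mercury (LFC -0.53, adjusted p = 0.00043). SLC38A2, an importer of small neutral amino acids, differed by an LFC of -0.82 (adjusted p = 1.42e-10). Against non-treated cells, none of these 3 transporters was called with arsenic (LFC 0.27, -0.01, and 0.04), and all were called higher with mercury (1.17, 0.52, and 0.86).

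SLC7A5, the light chain of a leucine transporter that also pairs with SLC3A2, did not differ detectably. It had 58.7, 54.2, and 101 CPM with arsenic and 65.6, 67.7, and 72.6 CPM with mercury (LFC 0.07, SE 0.16, adjusted p = 0.936), and arsenic replicate 3 lay above all mercury libraries. The glycine transporter SLC6A9 had 5.25, 5.25, and 6.33 CPM with arsenic and 8.45, 11.9, and 11.6 CPM with mercury (LFC -0.92, SE 0.28, adjusted p = 0.0785), and the neutral amino acid transporter SLC1A4 had an LFC of -0.46 (adjusted p = 0.235), neither of them called. Of the biosynthetic enzymes, MTHFD2 of the mitochondrial folate pathway (LFC -0.54, adjusted p = 0.00124) and PHGDH, the entry enzyme of serine synthesis (LFC -0.37, adjusted p = 0.0102), were higher with mercury, while PSAT1, PSPH, SHMT2, and PYCR1 were not called (LFC -0.18, -0.08, 0.22, and 0.00). ASNS and ADM2 were at 0 and CBS had 1 count over the 9 libraries at 3 h; the authors' counting left out reads that overlapped more than 1 gene.

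The secreted factors of the list were also higher with mercury. GDF15, a stress-induced cytokine, had 4.95, 2.62, and 1.33 CPM with arsenic and 13.2, 14.2, and 11 CPM with mercury (LFC -2.06, SE 0.36, adjusted p = 8.47e-05). STC2, a secreted glycoprotein, had 120, 135, and 163 CPM with arsenic and 281, 260, and 291 CPM with mercury (LFC -0.99, adjusted p = 3.88e-09). VEGFA, the angiogenic growth factor, had a mean of 12.4 CPM with arsenic and 24.7 CPM with mercury (LFC -1.01, adjusted p = 0.0258).

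The ATF4 composite element joins the binding sites of C/EBP and ATF proteins, and the letters TGATGNAA were searched on both strands of the 250 bases before the transcription start (RefSeq, GRCh38.p14, available for 9446 of the tested genes). They were found in 127 of the 9446 promoters and in 2 of the 14 called members of the list that had a promoter sequence, CHAC1 and ATF3. The promoter of CHAC1 is shown because it had the lower LFC of the pair; it lies at chr15:40953221-40953470 on the plus strand, and the capitals mark the match, which reads on the opposite strand.
CHAC1: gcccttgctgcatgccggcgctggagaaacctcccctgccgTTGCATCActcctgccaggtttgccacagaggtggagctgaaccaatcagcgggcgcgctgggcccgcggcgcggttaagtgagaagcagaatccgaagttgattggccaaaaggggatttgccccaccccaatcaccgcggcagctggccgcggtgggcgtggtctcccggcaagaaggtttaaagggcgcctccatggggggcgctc

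HBEGF, a ligand of the EGF receptor that is on none of the lists, had 40.8, 61.7, and 50.7 CPM with arsenic, 179, 175, and 178 CPM with mercury, and 39.6, 53, and 39.3 CPM in non-treated cells. The arsenic and non-treated libraries overlapped, and the mercury libraries lay above all of them. HBEGF was 3.51-fold higher with mercury than with arsenic (LFC -1.81, SE 0.14, adjusted p = 9.52e-16), which was the smallest adjusted p of the comparison.

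ERRFI1, also on none of the lists, encodes a feedback inhibitor of the EGF receptor and had 23.5, 28.0, and 16.3 CPM with arsenic, 75.4, 129, and 72.9 CPM with mercury, and 28.1, 24.0, and 19.8 CPM in non-treated cells (LFC -2.05, SE 0.21, adjusted p = 5.09e-11). EGR1, a zinc finger transcription factor and classical target of ERK signalling, had 13.9, 12.2, and 8.66 CPM with arsenic and 29.7, 45.5, and 40.3 CPM with mercury (LFC -1.74, SE 0.24, adjusted p = 2.64e-07). JUNB, an AP-1 subunit, had 57.8, 45.5, and 52.0 CPM with arsenic and 110, 135, and 121 CPM with mercury (LFC -1.23, SE 0.13, adjusted p = 9.91e-11). Against non-treated cells, the arsenic LFC of these genes was 0.20 for HBEGF, -0.10 for ERRFI1, -0.08 for EGR1, and -0.28 for JUNB, with 0 of the 4 called, and that of mercury was 2.01, 1.95, 1.66, and 0.95, all called.

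The genes of the small MAF proteins were higher with mercury. MAFF had 24.1, 27.1, and 22.3 CPM with arsenic and 68.3, 80.4, and 74.3 CPM with mercury (LFC -1.61, SE 0.18, adjusted p = 1.84e-09). MAFK had 33.4, 28.9, and 49.7 CPM with arsenic and 99.4, 119, and 107 CPM with mercury (LFC -1.53, SE 0.19, adjusted p = 1.89e-08), and MAFG had an LFC of -0.89 (adjusted p = 2.85e-06). Small MAF proteins are the DNA-binding partners of NRF2. The mRNA of NRF2 itself, NFE2L2, which was added after its values were seen, had 64.0, 66.5, and 49.7 CPM with arsenic and 95.3, 90.2, and 92.4 CPM with mercury (LFC -0.63, adjusted p = 0.00341).

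Among the remaining immediate-early genes, CSRNP1 (LFC -1.68), PHLDA1 (-1.07), ZFP36L1 (-0.92), IER2 (-0.62), KLF6 (-0.53), BTG1 (-0.40), and JUN (-0.38) were called higher with mercury, as were ATF3 above and SOX9 and CCN2 below. ZFP36L1 encodes a protein that destabilizes mRNAs with AU-rich elements, and it had 128, 119, and 108 CPM with arsenic and 210, 237, and 225 CPM with mercury. The nuclear receptor NR4A1 was called from few counts, with 3.71, 3.94, and 2.33 CPM with arsenic and 10.8, 7.49, and 11.6 CPM with mercury (LFC -1.58, SE 0.42, adjusted p = 0.0281). Not every member of the list differed: FOS was at 0 in 2 of 3 libraries with each metal, FOSL1 (LFC 0.08) and KLF2 (-0.03) were not called, and neither was MYC, with means of 7.03 CPM with arsenic and 13.0 CPM with mercury (adjusted p = 0.412).

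Feedback inhibitors of MAP kinases were higher with mercury. DUSP6, a phosphatase of ERK, had 19.2, 14, and 14.3 CPM with arsenic, 41.2, 52.2, and 38.5 CPM with mercury, and 13.3, 13.2, and 14.8 CPM in non-treated cells (LFC -1.46, SE 0.21, adjusted p = 6.03e-07). DUSP5, a nuclear ERK phosphatase, had 17.6, 19.7, and 19.7 CPM with arsenic and 46.3, 50.4, and 49.8 CPM with mercury (LFC -1.37, SE 0.20, adjusted p = 1.86e-06). DUSP4 (LFC -0.65), SPRY4 (-2.03), SPRY2 (-2.16), and DUSP1 (-1.25) were also called. These last calls were less firm: SPRY4 lost its call without mercury replicate 2 (adjusted p = 0.0848), DUSP1 without arsenic replicate 1 or without mercury replicate 2, where it had 48.3 CPM against 22 and 25.2 CPM in the other mercury libraries. SPRY2 had a mean below 20 counts over the 6 libraries, and its call was not followed singly under the alternatives. Without mercury replicate 2, 3 of the 14 members were called. DUSP3, DUSP7, and DUSP14 were at LFC 0.03, -0.06, and -0.19 and were not called.

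Serum response factor binds CArG boxes, which are known in the promoters of immediate-early genes. A CArG box was found in 1.01% of all promoters and in 1 of 14 called members of the immediate-early list that had a promoter sequence. EGR1 was that gene, with 2 matches, marked by capitals in the 250 bases before its start at chr5:138465229-138465478 on the plus strand.
EGR1: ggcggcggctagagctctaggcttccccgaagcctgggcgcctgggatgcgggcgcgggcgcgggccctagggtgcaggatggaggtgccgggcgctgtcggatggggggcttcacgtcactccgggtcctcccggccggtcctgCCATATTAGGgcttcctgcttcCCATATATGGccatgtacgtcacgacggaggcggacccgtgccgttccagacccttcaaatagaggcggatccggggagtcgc

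**Figure D2:**
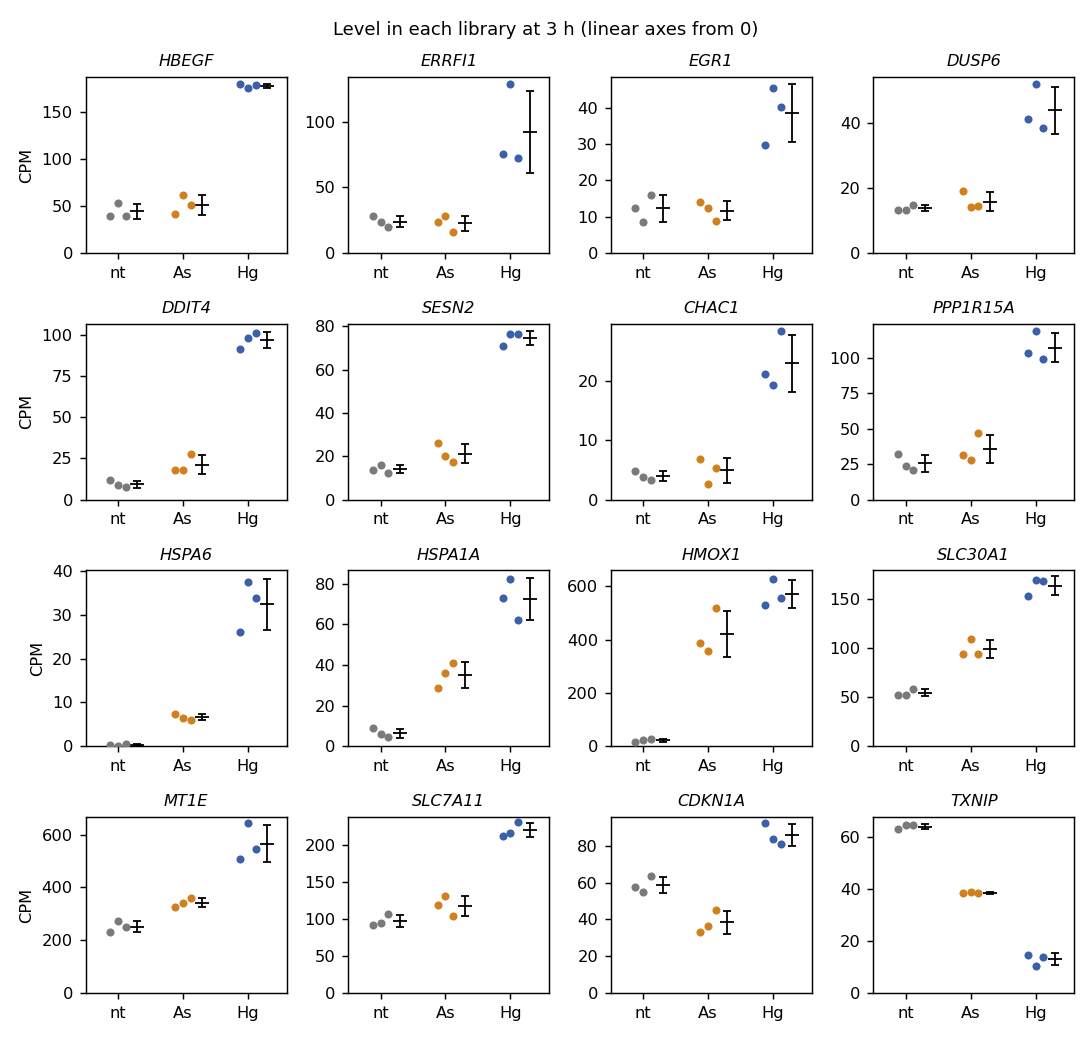
Level of 16 genes in each library at 3 h (CPM, linear axes from 0) in non-treated cells (grey, nt), with arsenic (orange, As), and with mercury (blue, Hg); bars are the mean ± SD of 3 libraries. HBEGF, ERRFI1, EGR1, and DUSP6 with arsenic lie near non-treated cells, HSPA1A, HMOX1, and SLC30A1 rise with both metals, and TXNIP falls with both, further with mercury.

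Against non-treated cells, 9 of the 32 heat-shock genes were called higher with arsenic and 16 with mercury, and 9 were higher with mercury than with arsenic. Of all tested genes, these shares were 0.122%, 1.39%, and 1.67%. HSPA6, a strictly inducible HSP70, had 7.42, 6.56, and 6.00 CPM with arsenic and 26, 37.5, and 33.8 CPM with mercury. In non-treated cells it had at most 2 counts in a library. The metals differed by 4.86-fold (LFC -2.28, SE 0.25, adjusted p = 2.01e-10). Against a floor of 3 counts per library, HSPA6 was at least 7.35-fold higher with arsenic and at least 35.8-fold higher with mercury than in non-treated cells.

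HSPA1A, the main inducible HSP70, had 28.4, 35.9, and 41.0 CPM with arsenic, 72.7, 82.4, and 62.2 CPM with mercury, and 8.76, 5.99, and 4.43 CPM in non-treated cells (LFC between the metals -1.05, SE 0.18, adjusted p = 3.93e-05). Its near-identical neighbour HSPA1B had 168, 169, and 195 CPM with arsenic and 241, 379, and 258 CPM with mercury (LFC -0.73, SE 0.15, adjusted p = 0.000926), and lost its call without mercury replicate 2 (adjusted p = 0.112). Reads may be split uncertainly between these 2 genes. Both were called above non-treated cells with either metal, with an LFC of 2.45 and 2.30 for arsenic and 3.50 and 3.03 for mercury.

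DNAJB4, an HSP40, had 17.6, 27.6, and 30.3 CPM with arsenic and 42.6, 66.7, and 49.8 CPM with mercury (LFC -1.09, adjusted p = 4.15e-05), and unlike HSPA1A its arsenic libraries overlapped non-treated cells (24.2, 15.9, and 23.9 CPM). BAG3, an HSP70 nucleotide exchange factor in selective autophagy, had an LFC of -0.57 (adjusted p = 0.00441), HSPH1, an HSP110 disaggregation factor, -0.35 (adjusted p = 0.00322), and DNAJB1, the main inducible HSP40, -0.41 (adjusted p = 0.0422). CHORDC1 (LFC -0.50) and DNAJB6 (-0.31) completed the 9 called members. ZFAND2A, an arsenite-inducible regulator of the proteasome that was added after its values were seen, was also higher with mercury, at 18.6, 16.8, and 27.5 CPM against 10.2, 7.0, and 9.33 CPM with arsenic (LFC -1.22, adjusted p = 0.00619).

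Other heat-shock genes did not differ detectably between the metals. HSPA8, the constitutive HSC70, had 739, 860, and 696 CPM with arsenic and 761, 762, and 744 CPM with mercury (LFC 0.02, SE 0.10, adjusted p = 0.981), and was above non-treated cells with both (LFC 0.48 and 0.47, both called). The small heat-shock protein gene HSPB1 had an LFC of 0.13 (adjusted p = 0.663), and HSP90AA1, which encodes inducible HSP90, of -0.17 (adjusted p = 0.208). Of the 32 tested members 25 had an LFC below 0, against 48.9% of all tested genes. Without mercury replicate 2, 5 members were called.

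Heat-shock factors bind inverted repeats of GAA, and pairs of such units (GAANNTTC or TTCNNGAA, each of which is its own reverse complement) were found in 8.63% of all promoters, in 11 of 29 promoters of the heat-shock list, and in 5 of the 9 called members. Among all genes higher with mercury, 22 of 176 promoters (12.5%) held a pair. HSPA6 and HSPA1A are shown for the widest and the best known difference; capitals mark the pairs, which overlap in the second stretch of HSPA6. HSPA6 lies at chr1:161524290-161524539 and HSPA1A at chr6:31815293-31815542, both on the plus strand.
HSPA6: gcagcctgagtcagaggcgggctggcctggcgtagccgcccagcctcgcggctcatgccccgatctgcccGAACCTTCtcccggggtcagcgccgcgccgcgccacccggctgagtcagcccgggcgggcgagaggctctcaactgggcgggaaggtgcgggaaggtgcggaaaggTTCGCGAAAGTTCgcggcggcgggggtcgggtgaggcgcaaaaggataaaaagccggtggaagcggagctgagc
HSPA1A: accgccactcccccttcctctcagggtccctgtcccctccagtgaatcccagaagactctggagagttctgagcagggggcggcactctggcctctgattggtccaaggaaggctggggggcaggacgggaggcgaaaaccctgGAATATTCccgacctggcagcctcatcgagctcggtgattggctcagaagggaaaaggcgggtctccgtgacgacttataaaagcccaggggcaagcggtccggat

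Of the metal-responsive genes, SLC30A1 and MT1E differed between the metals. SLC30A1, the zinc exporter of the plasma membrane, had 94.3, 110, and 93.6 CPM with arsenic, 153, 170, and 169 CPM with mercury, and 52.5, 52.4, and 58.5 CPM in non-treated cells, with no overlap between groups (LFC between the metals -0.73, SE 0.12, adjusted p = 4.11e-05). The metallothionein MT1E had 325, 340, and 359 CPM with arsenic, 509, 645, and 544 CPM with mercury, and 232, 273, and 249 CPM in non-treated cells (LFC -0.73, SE 0.10, adjusted p = 8.83e-07). The other metallothioneins were not called: MT2A had 2780, 3518, and 2934 CPM with arsenic and 4219.7, 3848, and 4196 CPM with mercury (LFC -0.41, SE 0.19, adjusted p = 0.342), and MT1X had 12.7, 12.2, and 18.0 CPM with arsenic and 13.9, 18.1, and 20.1 CPM with mercury (LFC -0.28, SE 0.22, adjusted p = 0.679). Metallothionein genes are close copies of each other, so their reads may be divided uncertainly.

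The call of MT2A changed without a filter on low counts, to an adjusted p of 9.09e-06. SLC39A10, a zinc importer, stood at 20.1, 19.2, and 18.3 CPM with arsenic and 20.6, 19.4, and 14.2 CPM with mercury (LFC 0.09, SE 0.27, adjusted p = 0.955). Of 14 listed MTF1 targets, 6 were tested and 2 were called, and MT1B, though tested, had 0 counts at 3 h. Among 16 zinc transporters of the SLC30 and SLC39 families, SLC30A1 was the 1 called. The core of the metal response element (TGCACNC or TGCGCNC, either strand) is short and occurred in 33.9% of all promoters and in 32.4% of those higher with mercury. The promoter of SLC30A1 held 1 match, in capitals and on the opposite strand, at chr1:211579162-211579411 on the minus strand.
SLC30A1: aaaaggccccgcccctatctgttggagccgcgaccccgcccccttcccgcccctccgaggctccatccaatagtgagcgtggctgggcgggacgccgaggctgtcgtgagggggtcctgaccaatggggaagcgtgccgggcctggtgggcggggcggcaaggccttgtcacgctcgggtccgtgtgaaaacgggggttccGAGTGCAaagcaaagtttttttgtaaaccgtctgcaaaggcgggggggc

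Few NRF2 targets and glutathione genes differed between the metals. HMOX1, the heme oxygenase, had 387, 356, and 520 CPM with arsenic, 529, 628, and 556 CPM with mercury, and 16.6, 21.6, and 28.1 CPM in non-treated cells. This was an LFC of 4.25 for arsenic and 4.69 for mercury against non-treated cells, both called, and the difference between the metals missed the threshold (LFC -0.44, SE 0.13, adjusted p = 0.0564). HMOX1 passed it without a filter, with a replicate block, without arsenic replicate 3, and in DESeq2 (adjusted p 0.000405 to 0.0475). GCLM, the regulatory subunit of glutathione synthesis, had 210, 201, and 215 CPM with arsenic and 229, 252, and 240 CPM with mercury (LFC -0.20, adjusted p = 0.354). Thioredoxin reductase TXNRD1 (LFC -0.46, adjusted p = 0.107) and the quinone reductase NQO1 (LFC -0.19, adjusted p = 0.299) were not called. Of 34 tested members 1 was called, SLC7A11, and the median LFC was -0.03.

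Genes of growth arrest and cell death included pro-apoptotic and anti-apoptotic genes higher with mercury. PMAIP1, which encodes the pro-apoptotic protein NOXA, had 88.7, 73.5, and 82.6 CPM with arsenic and 149, 187, and 155 CPM with mercury (LFC -1.0, SE 0.12, adjusted p = 5.76e-09). BBC3, which encodes PUMA, had an LFC of -0.72 (adjusted p = 0.0354). MCL1, an anti-apoptotic member of the BCL2 family, had 236, 270, and 292 CPM with arsenic and 408, 372, and 426 CPM with mercury (LFC -0.60, SE 0.10, adjusted p = 3.42e-05). GADD45A (LFC -0.66), the death receptor gene TNFRSF10B (-0.56), and the kinase PLK3 (-1.70) were also called, and 4 of the 23 members were called without mercury replicate 2.

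CDKN1A encodes the cyclin-dependent kinase inhibitor p21. It had 33.4, 36.3, and 45.3 CPM with arsenic, 92.6, 84.0, and 80.9 CPM with mercury, and 57.7, 54.8, and 63.6 CPM in non-treated cells, so that no 2 groups overlapped. The difference between the metals was called (LFC -1.16, SE 0.16, adjusted p = 4.43e-07), as was the rise with mercury against non-treated cells (LFC 0.55, adjusted p = 0.0427). The value with arsenic against non-treated cells, an LFC of -0.61, was not called (adjusted p = 0.127).

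Of 26 tested genes of ER chaperones and the unfolded protein response, 3 were called, with a median LFC of -0.02. XBP1, the transcription factor of the unfolded protein response, had 55.9, 63.4, and 62.6 CPM with arsenic and 94.7, 110, and 94.5 CPM with mercury (LFC -0.72, SE 0.11, adjusted p = 5.75e-06). The other 2 called members, DNAJB9 (LFC -0.91, adjusted p = 0.0399) and HERPUD1 (LFC -0.54, adjusted p = 0.0452), lost their calls in most alternatives. HSPA5, which encodes the main ER chaperone BiP, was at LFC -0.07. Of 20 cytosolic tRNA synthetases, 4 were called (GARS1, CARS1, NARS1, and TARS1, LFC -0.44 to -0.30), with a median LFC of 0.00 for the list; these calls fell to 1 without arsenic replicate 1, mercury replicate 2, or mercury replicate 3, and to 0 in the fit of the 6 libraries alone and in the test of a fold beyond 1.2.

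Lists without a called member included the chaperonin TRiC (8 tested, median LFC 0.01), the proteasome (31, median 0.02), ubiquitin genes and autophagy receptors (14, median -0.07), heme and iron handling (17, median 0.04), and SR splicing factors with CLK kinases (19, median 0.02). Other lists held 1 or 2. These were the glucose transporter SLC2A3 among 26 genes of glycolysis and hypoxia (LFC -1.32, adjusted p = 3.6e-07), MCM10 among 24 of S phase (LFC -0.45, adjusted p = 0.0303), SAT1 among 11 of polyamines (LFC -0.56, adjusted p = 0.0281), TNFAIP3 among 17 of NF-kB (LFC -1.0, adjusted p = 0.0298), and F3 and CCN2 among 24 targets of YAP and SRF (LFC -1.1 and -0.67). All of these were higher with mercury. The NF-kB list had a median LFC of -0.40 with 16 of 17 members below 0. The YAP and SRF list had a median of -0.24 with 20 of 24 below 0, against 48.9% of all tested genes. The lists of glycolysis and hypoxia, S phase, and polyamines had medians of -0.03, -0.04, and 0.04. F3 was not called without mercury replicate 2 (adjusted p = 0.094), and MCM10, SAT1, TNFAIP3, and CCN2 each lost their call in at least 5 alternatives. SOX9, the 1 called gene among 5 tested astrocyte and glioma markers, had 78.5, 74.8, and 70.0 CPM with arsenic and 112, 123, and 101 CPM with mercury, with non-treated cells between them at 96.9, 91.6, and 100 CPM (LFC -0.59, adjusted p = 0.00753), and it was not called without arsenic replicate 3 or mercury replicate 2.

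Of genes on none of the lists, RGS16, a regulator of G protein signalling (LFC -2.07, adjusted p = 3.35e-05), the zinc finger factor KLF5 (LFC -2.01, adjusted p = 5.32e-05), and ZC3H12C, a member of the regnase family of RNA-degrading proteins (LFC -2.02, adjusted p = 0.00131), had an LFC below -2. All 3 were at low levels, and for each the arsenic libraries lay below and the mercury libraries above non-treated cells. ZC3H12C had 3.09, 2.19, and 3.00 CPM with arsenic, 9.47, 13.2, and 11.6 CPM with mercury, and 8.45, 5.09, and 6.80 CPM in non-treated cells. Against non-treated cells, mercury was called higher for RGS16 (LFC 1.08, adjusted p = 0.0452) and KLF5 (LFC 1.18, adjusted p = 0.0251). Arsenic was not called for RGS16 (LFC -0.99) or KLF5 (LFC -0.83). Neither difference of ZC3H12C from non-treated cells was called (LFC -1.26 and 0.75).

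The genes higher with arsenic were few. TXNIP, an inhibitor of thioredoxin and of glucose uptake, had 38.3, 38.9, and 38.3 CPM with arsenic, 14.5, 10.3, and 13.9 CPM with mercury, and 62.8, 64.4, and 64.4 CPM in non-treated cells. The groups did not overlap, and TXNIP was 3.00-fold higher with arsenic than with mercury (LFC 1.58, SE 0.19, adjusted p = 3.88e-09). Both metals lowered it against non-treated cells (LFC -0.73 for arsenic, adjusted p = 0.0157; -2.31 for mercury, adjusted p = 1.42e-16).

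The transcription factor ATOH8 had 38.9, 57.7, and 51.3 CPM with arsenic and 24.3, 20.7, and 23.7 CPM with mercury (LFC 1.1, SE 0.19, adjusted p = 9.45e-05), and non-treated cells had 40.5, 33.8, and 39.6 CPM. Mercury was called lower than non-treated cells for ATOH8 (LFC -0.73, adjusted p = 0.0298), and arsenic was not called (LFC 0.37, adjusted p = 0.679). CCNF, which encodes the cell cycle protein cyclin F, had 65.2, 73.5, and 81.6 CPM with arsenic and 44.3, 41.9, and 50.9 CPM with mercury (LFC 0.68, adjusted p = 0.005). Its mean in non-treated cells was 69.1 CPM (SD 5.45). CCNF was the 1 called gene among 24 of G2 and mitosis, whose median LFC was 0.11 with 4 members below 0, and it was not called without arsenic replicate 3 or without mercury replicate 2. MRPL20-AS1, an antisense RNA, had 26, 18.4, and 36.3 CPM with arsenic and 12.5, 10.1, and 13.9 CPM with mercury (LFC 1.16, adjusted p = 0.00684), and was also not called without either of these libraries. Non-treated cells had a mean of 23.2 CPM (SD 3.98) for MRPL20-AS1.

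ID1, ID3, and SMAD6, known targets of BMP signalling that were singled out after their values were seen, were higher with arsenic. ID1, an inhibitor of bHLH transcription factors, had 553, 596, and 625 CPM with arsenic, 415, 376, and 417 CPM with mercury, and 622, 595, and 548 CPM in non-treated cells (LFC between the metals 0.55, adjusted p = 1.17e-05). ID3, of the same family, had an LFC of 0.32 (adjusted p = 0.0128) and SMAD6, an inhibitor of BMP receptor signalling, of 0.86 (adjusted p = 0.00694). For ID1 the arsenic libraries overlapped non-treated cells, and mercury was called lower than non-treated cells (LFC -0.55, adjusted p = 1.04e-05). The highest LFC in this direction came from genes with few counts: ZBTB42 had 6.49, 4.81, and 6.00 CPM with arsenic and 0.338, 1.81, and 0.296 CPM with mercury (LFC 2.69, adjusted p = 0.006).

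Sequence features were compared between the called genes and all tested genes, as a description. In the 250 bases before the start, the AP-1 site TGANTCA (either strand) was found in 7.95% of promoters of genes higher with mercury and 3.81% of all, the cAMP response element TGACGTCA in 4.55% and 3.06%, and the antioxidant response element TGACNNNGC in 12.5% and 12.1%. The AP-1 matches were 14 of 176 promoters, and the ATF4 composite element was in 5 of 176 (2.84%). None of the 20 promoters of genes higher with arsenic held an AP-1, ATF4, or cAMP response match. So few promoters cannot tell this from the shares of all promoters. The pair of heat-shock units and the AP-1 or antioxidant motif can share bases.

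The 3′ untranslated regions of genes higher with mercury held the AU-rich nonamer TTATTTATT, a sequence known to shorten the life of mRNAs, more often than those of all tested genes: 48 of 202 (23.8%) against 10.2% of 10865. These regions were also longer, with a median of 1896 against 1413 bases. Within length classes the shares were 12.5% against 3.06% below 1000 bases, 23.5% against 8.99% from 1000 to 2500 bases, and 31.5% against 20.6% from 2500 bases. In the genes higher with arsenic it was 0 of 25. The regions were those of the canonical GENCODE transcripts, which need not be the ones expressed in this cell line, and no test was made.

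The libraries of the other time points gave the same comparison in other samples. Of the 206 genes higher with mercury at 3 h, 57 (27.7%) were called higher with mercury in the libraries of 1.5 h, 101 (49%) in those of 6 h, 112 (54.4%) after 12 h, and 116 (56.3%) after 24 h. All genes tested were called in this direction at 0.737%, 3.07%, 4.42%, and 6.78%. Read from the other side, the shared genes were 62.6% of the 91 genes higher with mercury at 1.5 h and 13.9% of the 837 at 24 h. The opposite direction was called for 0, 0, 1, and 2 of the 206. Of the 27 genes higher with arsenic at 3 h, 3, 7, 6, and 9 were called in the same direction, against 0.818%, 1.41%, 2.42%, and 4.59% of all genes. In a test of the change itself, the difference between the metals at 3 h differed from that at 1.5 h for 6 genes (0.0486% of those tested), from that at 6 h for 5 (0.0405%), from that at 12 h for 53 (0.429%), and from that at 24 h for 238 (1.93%).

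**Figure D3:**
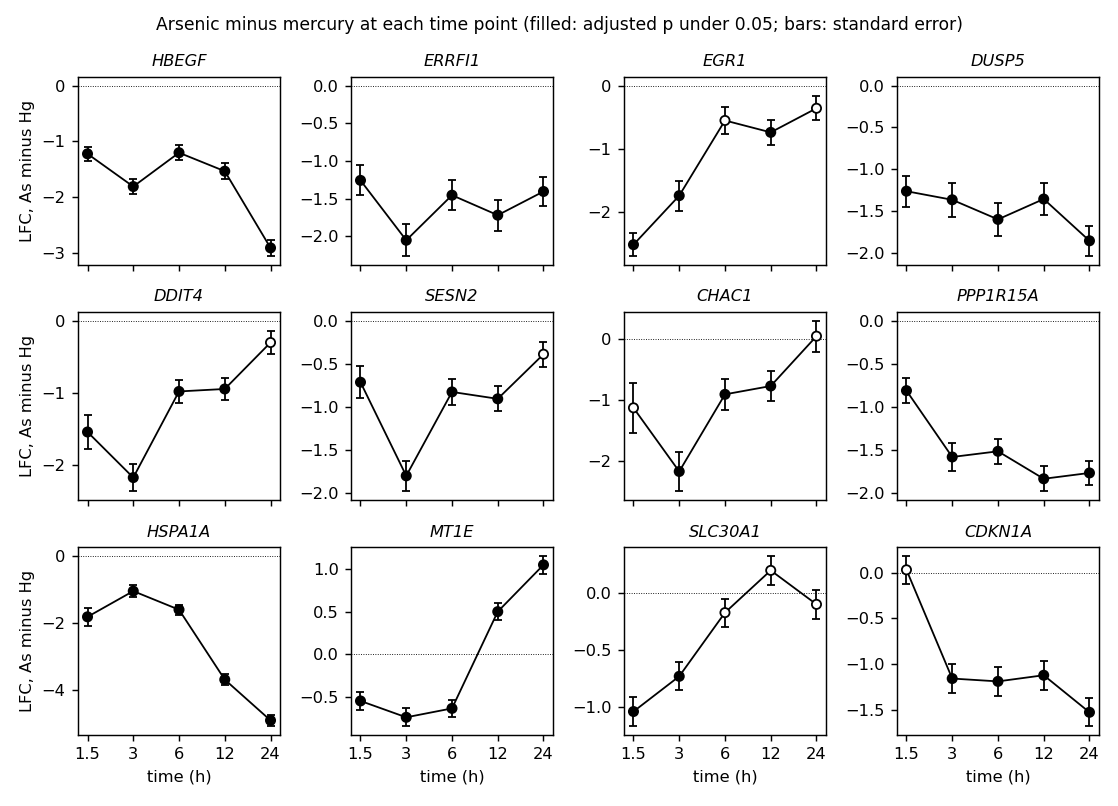
LFC of arsenic minus mercury at the 5 time points from 1.5 to 24 h (x axis, evenly spaced) for 12 genes, with standard errors; filled points had an adjusted p under 0.05. HBEGF, ERRFI1, DUSP5, PPP1R15A, and HSPA1A lie below 0 at all 5 time points, SLC30A1 reaches 0.20 at 12 h, and MT1E moves from -0.73 at 3 h to 1.04 at 24 h.

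Values at the other time points differed from gene to gene. EGR1 had its lowest LFC at 1.5 h (-2.51, adjusted p = 3.7e-17), then -1.74 at 3 h and -0.55 at 6 h, where it was not called. It was called again at 12 h (LFC -0.74, adjusted p = 0.0144) and not at 24 h (LFC -0.36, adjusted p = 0.243). SLC30A1 had an LFC of -1.04 at 1.5 h and -0.73 at 3 h, both called, and of -0.17, 0.20, and -0.10 afterwards, none of them called. HMOX1 was called at 1.5 h (LFC -1.22, adjusted p = 1.93e-07) and at no later time. For these 3 genes the difference between the metals was thus lower in size at 3 h than at 1.5 h, and the tests of that change did not pass the threshold.

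DDIT4, SESN2, and CHAC1 had their lowest LFC at 3 h, which was not so for every gene of the integrated stress response: PPP1R15A had -1.59 at 3 h and -1.84 at 12 h, and ATF3 -1.84 and, at 24 h, -2.67. The median of the list was -0.53 at 3 h and -0.55 at 6 h. DDIT4 went from -1.55 at 1.5 h over -2.18 at 3 h to -0.98 at 6 h, -0.95 at 12 h, and -0.30 at 24 h. SESN2 went from -0.72 over -1.8 to -0.83, and CHAC1 from -1.13 over -2.17 to -0.90 at the same 3 time points. Of these 3 genes, DDIT4 passed the test of the change against 6 h (adjusted p = 0.0289; SESN2 0.089, CHAC1 0.243), and none passed it against 1.5 h. ERRFI1 lay between -2.05 and -1.26 and DUSP5 between -1.86 and -1.26 at all times, all called. Other feedback genes did not show this: SPRY4 was called at 3 h and at no other time, DUSP6 was not called at 1.5 h (adjusted p = 0.152), and the list of MAP kinase phosphatases and Sprouty-type inhibitors had a median LFC of -0.03 at 6 h with 3 of 14 called. HSPA1A went from -1.05 at 3 h to -3.70 at 12 h and -4.92 at 24 h, and MT1E reversed from -0.73 at 3 h to 0.50 at 12 h and 1.04 at 24 h, all called.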

How the data were processed

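RNA of 1321N1 cells was sequenced from the 3′ end (single-end reads). The authors aligned reads to GRCh38 with STAR 2.7.9a, counted them per gene on exons of the GENCODE basic annotation, by strand and without reads that overlap more than 1 gene, and deposited whole-number counts without normalization. The 92 spike-in sequences had 0 counts.

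All 60 libraries were fitted in edgeR 4.0.16 (R 4.3.3) with 1 coefficient per metal and time point, TMM factors (0.934 to 1.03), and filterByExpr (minimum count 10, minimum total 15). The contrast of arsenic minus mercury at 3 h was tested by quasi-likelihood with Benjamini-Hochberg adjustment over 12341 genes, and called at an adjusted p under 0.05. SE is the LFC divided by the root of the F statistic. The common biological coefficient of variation was 0.120. The test was checked on simulated counts. Floors of 3 counts cover counting error only.

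The comparison and its 27 gene lists were chosen with earlier results of these data known. Genes named are up to 15 with the largest LFC beyond 1 in each direction (mean of at least 20 counts), up to 4 called members of each list with the smallest p, the genes the study names, HMOX1, and HSPA6. Fewer than 15 genes higher with arsenic met this rule. Other members of the lists are given beside them, and NFE2L2, ZFAND2A, ID1, ID3, SMAD6, ZBTB42, and MT-RNR1 were added after values were seen. No 2 replicates were copies (lowest chi-square per degree of freedom 2.02). Alternatives were DESeq2, RLE size factors, other filters, a replicate block, fits of fewer libraries, a test of a fold beyond 1.2, and leaving out each library. Promoters came from RefSeq, 3′ untranslated regions from the GENCODE reference given. The result of 1 called gene is not reported here.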

Additional observations from a re-analysis of the deposited data

Results flagged for a closer look

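The difference between arsenic and mercury itself was tested for a change between 3 h and each other time point (edgeR, interaction of metal and time). It changed for 6 genes against 1.5 h (0.0486% of those tested), 5 against 6 h (0.0405%), 53 against 12 h (0.429%), and 238 against 24 h (1.93%).

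Against 1.5 h, the LFC of arsenic minus mercury changed by -1.95 for the linker histone gene H1-2 and by -1.43 for the core histone gene H4C3. H1-2 stood at 284 ± 83.3 CPM (SD, n = 3) with arsenic and 50.3 ± 5.50 CPM with mercury at 1.5 h, and at 153 ± 24.6 and 105 ± 10.2 CPM at 3 h. H4C3 stood at 1876 ± 492 and 490 ± 10.5 CPM at 1.5 h. Neither was called at 3 h. The other 4 genes were called higher with mercury at 3 h and not at 1.5 h, with a change of -0.912 for STC2, -1.19 for CDKN1A, -1.27 for MAFK, and -1.21 for SH3RF1. CDKN1A had an LFC of 0.03 at 1.5 h and -1.16 at 3 h.

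Against 6 h, DDIT4 had a change of -1.2, from an LFC of -2.18 at 3 h to -0.98 at 6 h, and MARCKS, a substrate of protein kinase C, had a change of -0.543. HSPA5, the ER chaperone BiP, had a change of 0.591: it was at 1118 ± 31.9 CPM with arsenic and 1177 ± 72.8 CPM with mercury at 3 h, and at 1010 ± 68.7 and 1602 ± 97.2 CPM at 6 h. SDF2L1, its ER partner, had a change of 1.1, and the secreted glycoprotein STC1 of 0.759.

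Against 12 h, the smallest p values were those of HSPA6 (change 5.65), DNAJB1 (1.88), and HSPA1A (2.65), and against 24 h those of HSPA1A (3.87), GADD45B (2.41), and HSPA6 (5.68). HSPA1A stood at 35.1 ± 6.31 CPM with arsenic and 72.4 ± 10.1 CPM with mercury at 3 h, and at 24.1 ± 6.14 and 723 ± 103 CPM at 24 h. HSPA6 had at most 8 counts in a library with arsenic at 12 h and 9 at 24 h.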

How the results depend on the processing

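No named gene whose difference was recomputed, and which was called in the main fit or in the alternative, changed direction between the metals. Changes of sign in genes called in neither fit were not counted. Of the 233 genes called, 230 were shared with RLE size factors, 223 with a stricter filter, 178 without a filter, 228 of 230 with a replicate block, 170 with the 12 libraries at 3 h, 118 with the 6 libraries compared, and 218 of 291 in DESeq2. Deviations of arsenic and mercury libraries with the same number correlated at -0.05, 0.09, and 0.08, and these libraries were therefore treated as unpaired; the block changed the call of HMOX1 among the named genes. Genes higher with mercury (206) were 107 in the fit of 6 libraries and 76 in the test of a fold beyond 1.2, and ranged from 120 to 177 with 1 library left out. Genes higher with arsenic (27) were 15, 6, and 49 (DESeq2), and ranged from 12 to 40. Those with an LFC beyond 1 in addition (7) were 4 in DESeq2. Genes whose difference changed with time were 16 (1.5 h), 63 (6 h), and 116 (12 h) in DESeq2, against 6, 5, and 53. The fit of 6 libraries has fewer samples, and the fold test asks for more; the cause of the other shifts was not tested.

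Calls lost most often were those of HERPUD1, DNAJB9, MCM10, TNFAIP3, and NARS1. Without a filter, MT2A and the 13 mitochondrial genes were called. The 15 genes higher with arsenic than in non-treated cells were 30 without a filter and in DESeq2. Genes near 1 CPM rest on about 3 counts in a library, and their small differences could not be detected.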
